A study of Mus musculus with 4 samples.

Results

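The mRNA levels of 10 genes that mark endocrine progenitors of the pancreas or β-cells that lose their mature identity were measured in islet cells from aged mice after treatment with MOTS-c, a peptide encoded in mitochondrial DNA, or with a scrambled control peptide. The genes were Aldh1a3, Gast, Cck, Neurog3, Sox9, Hes1, Rfx6, Insm1, Pax4 and Fev, chosen by symbol from 22916 genes named by the probes of the arrays. They were covered by 12 of 56605 gene probes, with 2 probes each for Sox9 and Fev and 1 for each other gene.

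Islets were isolated from C57BL/6 littermates aged 60 weeks and labelled male, dispersed into single cells, and exposed to either peptide ex vivo at 10 μM for 24 h. Both groups therefore held primary, dispersed and cultured islet cells of 1 strain and 1 age, with no untreated or young cells among the arrays. RNA was hybridized to 4 one-color arrays, 2 with scrambled peptide (replicates 1 and 2) and 2 with MOTS-c (replicates 2 and 3). The labels state 4 animals and 2 samples per group but do not tie an array to an animal, so the spread between replicates is that between these samples.

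In the developing pancreas, endocrine cells arise from epithelial progenitors that express Sox9, and Notch signaling through Hes1 represses Neurog3, the basic helix-loop-helix factor that starts the endocrine program. Downstream of Neurog3, factors such as Insm1, Rfx6, Pax4 and Fev take the cells toward the islet lineages. In diabetic mouse islets, β-cells under metabolic stress can lose identity genes and switch on genes that are low in healthy adult β-cells, of which Aldh1a3, Gast and Cck are known examples.

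RefSeq promoters were at hand for 5 members (Fev, Cck, Gast, Neurog3 and Rfx6), and Pax4 is named without a sequence. Those of 3 are shown because their RNAs were detected and encode either the factor Fev, whose level was lower with MOTS-c, or the related peptide hormones gastrin and cholecystokinin. The bases directly upstream of each gene in RefSeq (GRCm38.p6) are printed 5′ to 3′ on the strand of the gene, for Fev at chr1:74885474-74885658 (minus strand), for Gast at chr11:100334157-100334406 (plus strand) and for Cck at chr9:121495695-121495944 (minus strand). Capitals mark the E-box letters CANNTG, the kind of sequence that basic helix-loop-helix factors such as Neurog3 recognize.
Fev: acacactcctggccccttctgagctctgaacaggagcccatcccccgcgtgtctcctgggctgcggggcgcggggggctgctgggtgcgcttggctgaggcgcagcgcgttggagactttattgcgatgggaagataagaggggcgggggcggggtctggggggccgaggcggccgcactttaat
Gast: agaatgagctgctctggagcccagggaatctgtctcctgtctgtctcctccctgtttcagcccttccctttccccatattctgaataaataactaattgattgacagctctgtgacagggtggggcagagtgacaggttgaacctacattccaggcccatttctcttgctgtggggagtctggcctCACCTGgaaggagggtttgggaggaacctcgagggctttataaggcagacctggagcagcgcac
Cck: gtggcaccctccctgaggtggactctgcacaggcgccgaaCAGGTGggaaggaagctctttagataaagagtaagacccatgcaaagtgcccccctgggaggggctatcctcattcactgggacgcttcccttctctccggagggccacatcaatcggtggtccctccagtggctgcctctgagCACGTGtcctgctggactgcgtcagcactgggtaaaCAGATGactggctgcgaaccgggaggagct
The letters CANNTG, which read the same on both strands, occurred 0 times in the 185 bases of Fev, 1 time in the 250 bases of Gast and 3 times in the 250 bases of Cck. Of 32851 RefSeq promoter windows of 250 bases, 66.2% held the letters at least 1 time and 12.2% at least 3 times, and 56.5% of windows of 185 bases held them. No binding was measured, so these matches describe the letters alone.

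Of 35087 probes that were well above background on at least 2 arrays, 0 (0%) had an adjusted p under 0.05 by limma with Benjamini-Hochberg adjustment, and the smallest adjusted p was 0.474. At an unadjusted p under 0.05, 2755 probes (7.85%) passed, and 1239 (3.53%) also differed by at least 1.5-fold, of which 387 (1.1% of those tested) were higher and 852 (2.43%) were lower with MOTS-c. Both arrays of one group lay above both of the other for 38% of probes, with MOTS-c higher in 19.4% and lower in 18.6%. With 2 arrays per group an exact two-sided permutation test could not give a p under 0.333. The MOTS-c array of replicate 3 stood most apart, with 3769 and 5728 probes at least 1.5-fold from the 2 scrambled arrays. The numbers were 2759 and 2386 for MOTS-c replicate 2 and 2242 between the scrambled arrays. Between the 2 MOTS-c arrays it was 3959, more than between MOTS-c replicate 2 and either scrambled array. The male label of the samples was checked with sex-linked genes: across the arrays 0 of 28 readings of the 7 probes for Y-linked genes passed the background test, while the Xist probe lay at 23.7 to 33.5 times its local background on all 4 arrays, which goes against that label. Of the islet markers, Ins1, Ins2, Iapp, Gcg and Sst were well above background on all 4 arrays.

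Detection separated the members before any comparison. The probes of Hes1, Rfx6, Insm1, Pax4, Gast and Cck and 1 of the 2 Fev probes, 7 in all, were well above background on all 4 arrays. The probes of Aldh1a3 and Neurog3, both Sox9 probes and the second Fev probe, 5 in all, were well above background on 0 arrays. The 3 genes with no detected probe were thus 2 that mark progenitors, Neurog3 and Sox9, and Aldh1a3.

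**Figure D1:**
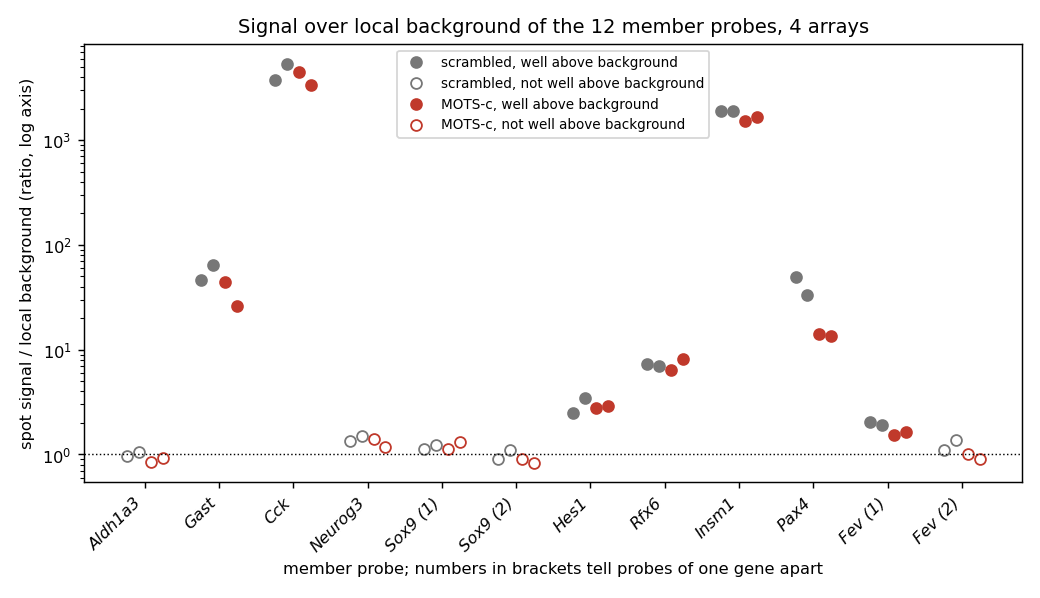
Median spot signal divided by local background (log axis) for the 12 member probes, with gray points for scrambled and red points for MOTS-c arrays and open points where a spot was not well above background. The 5 undetected probes sat between 0.838 and 1.5 times background on every array, and the first Fev probe sat just above them at 1.55 to 2.05.

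Of the 7 tested members, 2 (Pax4 and Fev) were at least 1.5-fold lower with MOTS-c at an unadjusted p under 0.05, and 0 were higher. The background share of the same rule was 2.43% in the lower direction, and 0 of the 7 passed the adjusted test. Without MOTS-c replicate 3 the count was also 2, with Pax4 and Fev again lower. In 4 members (Gast, Insm1, Pax4 and Fev) the scrambled arrays all exceeded the MOTS-c arrays, against a background of 18.6%, and in the other 3 the groups overlapped. The log2 fold change was below 0 for 6 of the 7 and above 0 for Rfx6, while its median over all probes was 0.01. In these bulk samples, fewer cells of a type and less RNA per cell cannot be told apart.

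**Figure D2:**
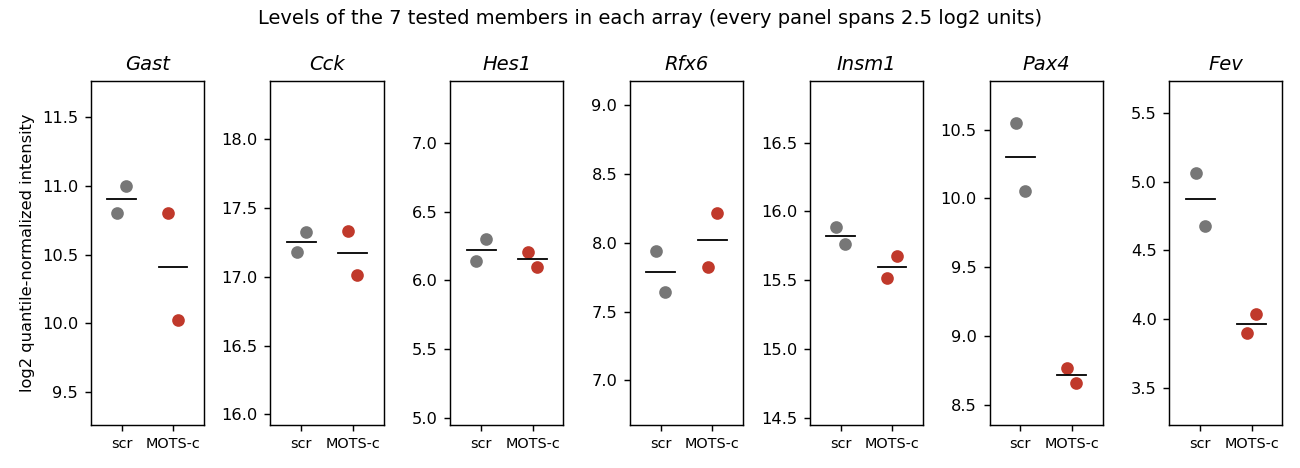
Log2 quantile-normalized intensity of the 7 tested members, 1 panel per gene, with a point per array and a line at the mean of each group. Every panel spans the same number of log2 units, so the gap between groups is widest for Pax4 and next for Fev, and in Gast a single MOTS-c array lies low.

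Aldh1a3 encodes a retinaldehyde dehydrogenase that makes retinoic acid and is a marker of dedifferentiated β-cells in diabetic mice. Its probe lay at 0.961 and 1.07 times local background with scrambled peptide and at 0.855 and 0.934 times with MOTS-c. In both groups the spot was about as bright as the slide around it, so no level or difference is given.

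Gast encodes gastrin, a stomach hormone that is also made in the fetal pancreas. On the log2 quantile-normalized scale its level was 10.80 and 11.003 with scrambled peptide and 10.80 and 10.02 with MOTS-c. MOTS-c replicate 3 was low, whereas MOTS-c replicate 2 lay only 0.0021 log2 units below the lower scrambled array. The log2 fold change was -0.49 (SE 0.29, 95% interval -1.25 to 0.27, limma adjusted p = 0.746), which is 1.40-fold lower with MOTS-c. The difference rested on 1 array, since it was -0.10 without MOTS-c replicate 3 and -0.88 without MOTS-c replicate 2, when it passed the 1.5-fold rule.

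Cck encodes cholecystokinin, a gut and brain peptide that shares its active C-terminal end with gastrin and is also made in mouse islets. Its log2 level was 17.18 and 17.32 with scrambled peptide and 17.33 and 17.01 with MOTS-c, so the groups overlapped and each held a higher and a lower array. Its mean level was at or above that of 99.7% of the tested probes. Without young or untreated cells, whether this level was raised was not tested. The difference was -0.08 on the log2 scale (SE 0.16, 95% interval -0.51 to 0.35, limma adjusted p = 0.939), and it turned to 0.08 without MOTS-c replicate 3. Quantile normalization gives equal ranks the same value, so for so bright a probe this small difference is partly set by the scaling. It does not show that Cck RNA was unchanged. With each array scaled by its upper quartile instead, the difference was -0.15 (SE 0.22). The Cck probe was printed 10 times on each array, which gives the spot error within an array but not that of labeling, hybridization or scaling. On the log2 scale before normalization the SD among the 10 spots was 0.045, 0.037, 0.023 and 0.032 on the 4 arrays, and the SD between the array means was 0.197. The latter holds all differences between samples and arrays before scaling.

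**Figure D3:**
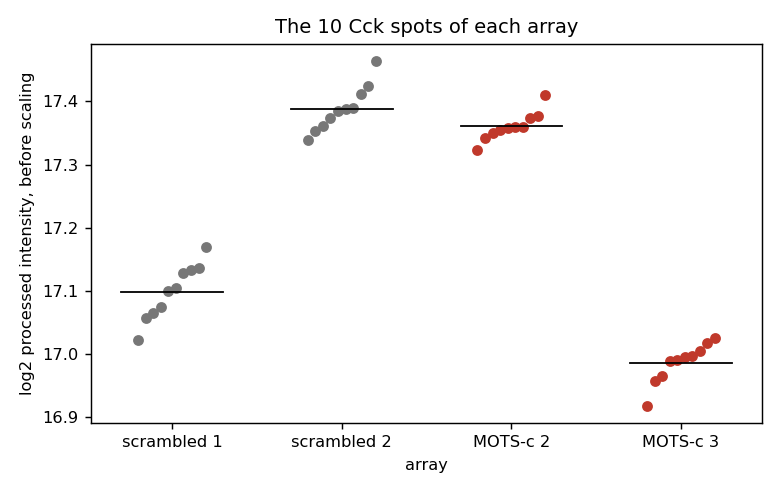
Log2 processed intensity of the 10 Cck spots on each array before normalization, with gray points for scrambled and red points for MOTS-c arrays and a line at each mean. Each array forms a tight band, with means of 17.10 and 17.39 for scrambled and 17.36 and 16.99 for MOTS-c, and the bands of the groups interleave.

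Of the progenitor factors, Neurog3 was not well above background on any array. Its probe lay at 1.35 and 1.5 times local background with scrambled peptide and at 1.39 and 1.19 times with MOTS-c. Sox9, a high-mobility-group factor of multipotent progenitors and adult ducts, lay at 1.13 to 1.32 times local background at one probe and at 0.838 to 1.103 times at the other. No comparison between the groups was made for either gene.

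Hes1, the transcriptional repressor that Notch signaling induces, was detected at a low level. Its log2 level was 6.14 and 6.30 with scrambled peptide and 6.21 and 6.10 with MOTS-c, at 2.51 to 3.48 times local background. The 4 arrays lay close together and the groups overlapped. Between the groups the log2 fold change was -0.07 (SE 0.13, 95% interval -0.42 to 0.29, limma adjusted p = 0.935), an interval that lies within 1.5-fold either way.

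Of the endocrine lineage factors, Insm1, a zinc-finger repressor required for endocrine differentiation and kept on in adult islets, gave a bright signal. Its log2 level was 15.88 and 15.76 with scrambled peptide and 15.51 and 15.68 with MOTS-c. The groups did not overlap, with a gap of 0.086 between the nearest pair. This amounted to a log2 fold change of -0.23 (SE 0.13, 95% interval -0.58 to 0.13, limma adjusted p = 0.747).

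Rfx6, a winged-helix factor needed for islet development and for insulin secretion, was the only member with a positive difference over all 4 arrays. Its log2 level was 7.94 and 7.64 with scrambled peptide and 7.82 and 8.22 with MOTS-c, and the groups overlapped. MOTS-c minus scrambled gave a log2 fold change of 0.23 (SE 0.20, 95% interval -0.30 to 0.76, limma adjusted p = 0.833). Without MOTS-c replicate 3, the highest array, it was 0.03.

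Pax4, a paired-box repressor that favors the β- and δ-cell fates over the α-cell fate, differed most among the tested members. Its log2 level was 10.55 and 10.05 with scrambled peptide and 8.77 and 8.66 with MOTS-c, at 13.4 to 49.1 times local background. Both MOTS-c arrays were low and close together, and the nearest scrambled array lay 1.28 log2 units above them, against SDs of 0.35 (scrambled, n = 2) and 0.080 (MOTS-c, n = 2). The log2 fold change was -1.59 (SE 0.20, 95% interval -2.13 to -1.05), which is 3.01-fold lower with MOTS-c, with an unadjusted p of 0.000789 and an adjusted p of 0.474 by limma. In log2 fold change it ranked 32 from the lowest of the 35087 probes. The value was -1.54 without MOTS-c replicate 3, and over the 10 alternatives it stayed between -1.83 and -1.34 and kept its place under the 1.5-fold rule in all 10.

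Fev, an ETS factor of serotonergic neurons that is also expressed in endocrine progenitors, was lower with MOTS-c at a dim probe. Its log2 level was 5.06 and 4.68 with scrambled peptide and 3.90 and 4.03 with MOTS-c, and the groups did not overlap. The log2 fold change was -0.90 (SE 0.18, 95% interval -1.37 to -0.44), which is 1.87-fold lower with MOTS-c, with an unadjusted p of 0.00464 and an adjusted p of 0.480 by limma. The spot signal was only 1.55 to 2.05 times local background, and the log2 fold change was -0.15 with another background correction (normexp), which adds an offset of 50 to spots whose processed signals were 14.7 to 33.6. Leaving out MOTS-c replicate 3 gave -0.97. The second Fev probe, at 0.914 to 1.38 times background, gave no test. The first Fev probe stands in a table of changed probes that the study drew from these arrays, so its direction there is no independent evidence, and it is the only 1 of the 12 member probes in that table.

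**Figure D4:**
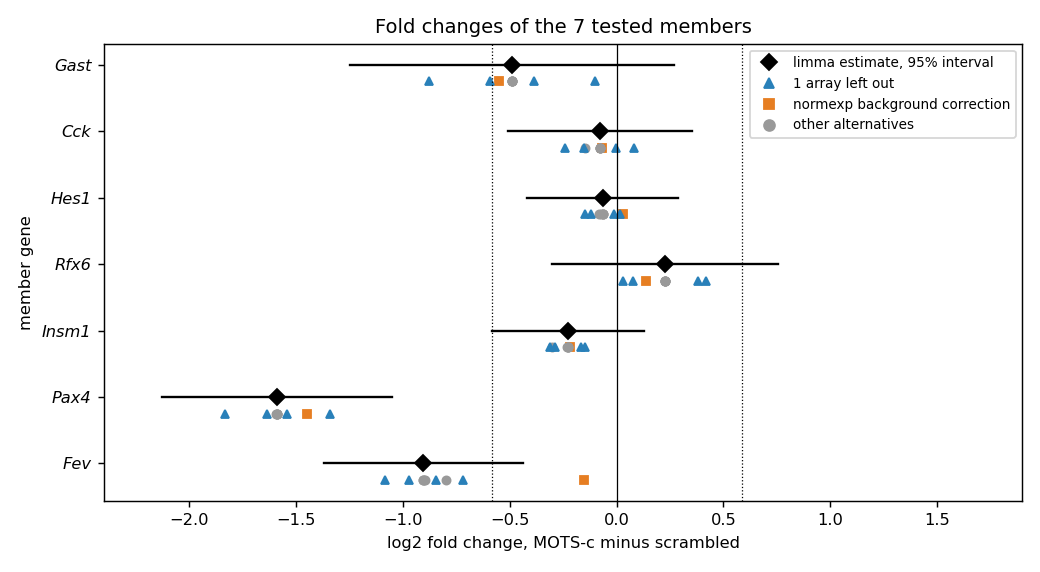
Log2 fold change (MOTS-c minus scrambled) of the 7 tested members, with the limma estimate and its 95% interval in black, the values with 1 array left out as triangles, with normexp as squares, and with the other alternatives as gray circles; dotted lines mark 1.5-fold. The values of Pax4 stay below the 1.5-fold line in every setting, whereas Fev crosses it with normexp and Gast scatters from -0.88 to -0.10.

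The levels of marker genes of the islet cell types were set beside Pax4 and Fev. Of 6 β-cell markers, Ucn3 was not tested, since its probe was well above background on 0 arrays, at 1.03 to 1.46 times local background. The 5 tested markers had a mean log2 level of 14.86 in each scrambled sample and 14.53 and 14.57 with MOTS-c. Most of that gap came from Slc2a2, the glucose transporter of β-cells, which was at 5.23 and 5.26 with scrambled peptide and 3.81 and 4.02 with MOTS-c (log2 fold change -1.33, SE 0.14, limma adjusted p = 0.474) and was well above background on 1 of the 2 MOTS-c arrays. The Slc2a2 probe was dim, at only 1.31 to 2.30 times local background, and its log2 fold change was -0.39 with normexp. After quantile normalization the hormone genes differed little, with log2 fold changes of -0.04 for Ins1, -0.05 for Ins2 and 0.07 for Iapp. Their probes are among the brightest, where that step gives equal ranks the same value. Ins2 was at 18.54 on scrambled replicate 1 and on both MOTS-c arrays. These small differences are therefore partly set by the scaling and do not show that the hormone RNAs were unchanged.

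Of 3 α-cell markers 2 were tested, and both were higher on each MOTS-c array, as were 19.4% of all probes, with a mean log2 level of 10.08 and 9.93 with scrambled peptide and 10.39 and 10.41 with MOTS-c. Gcg, which encodes glucagon, had a log2 fold change of 0.11 and the homeobox gene Irx2 of 0.68. Most of the gap between the means thus came from Irx2, whose spot signal was only 1.66 to 1.89 times local background. Irx2 lost the 1.5-fold rule without scrambled replicate 2, at 0.51, and with normexp, at 0.14, and Slc2a2 lost it with normexp, at -0.39. The 3 δ-cell markers had a mean log2 level of 11.34 and 11.68 with scrambled peptide and 11.61 and 11.34 with MOTS-c, with log2 fold changes of -0.28 for the hormone gene Sst and -0.25 for Rbp4, both with overlapping groups, and 0.44 for Hhex, where both MOTS-c arrays were higher. Sst is also among the brightest probes. It was at 17.17 on scrambled replicate 1 and MOTS-c replicate 2, 17.16 on MOTS-c replicate 3 and 17.72 on scrambled replicate 2. Its difference is therefore partly set by the scaling too and came from scrambled replicate 2. The part of the makeup of the samples in the Pax4 and Fev values was not tested.

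Markers of other cells in an islet preparation varied too. Of 7 duct markers 4 were tested and 0 passed the 1.5-fold rule, and the duct-defining Krt19 and Cftr were not well above background on enough arrays to be tested. Of 8 mesenchymal markers 3 were tested, with mean log2 levels of 8.56 and 8.51 with scrambled peptide and 8.17 and 7.90 with MOTS-c, and Pdgfra was lower (log2 fold change -1.05, SE 0.33, limma adjusted p = 0.567) while Col1a1 and Col3a1 were not tested for lack of signal. Of 8 acinar markers 4 were tested, with means of 7.23 and 7.48 against 7.23 and 6.99, and of 6 macrophage markers 4, with means of 8.88 and 9.19 against 8.81 and 8.79. In each of the last 2 lists 3 markers were below 0 and 1 above, and 1 passed the 1.5-fold rule, Cela1 of acinar cells and C1qa of macrophages (log2 fold change -0.76 and -0.67), while Ctrb1 and Cd68 were at 0.33 and 0.16; of all probes 2.43% were lower by that rule. Pdgfra lost the rule at -0.74 without scrambled replicate 1, at -0.68 without MOTS-c replicate 3 and at -0.40 with normexp, and C1qa at -0.45 without scrambled replicate 1 and at -0.59 without MOTS-c replicate 2. The 1 tested Schwann cell marker of 4 had a log2 fold change of -0.54, and the 2 tested endothelial markers of 5 had log2 fold changes of 0.01 and 0.18.

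The pathways around the members were read from 6 lists of 98 genes, of which 97 were matched on the array and 82 were tested at their brightest probe. Of the 82, 1 was higher and 9 lower under the 1.5-fold rule, with 35 above and 47 below 0 and a median log2 fold change of -0.03. Over all 15475 genes read the same way, 154 were higher and 465 lower, with a median of -0.0018. All 82 missed the adjusted test. Of the 10 genes, 8 stand in the study's own table of changed probes from these arrays, so their directions are not independent evidence. Jag1, Rarb, Tph1, Htr1d and Htr5b lost the rule with normexp, which left 5. With MOTS-c replicate 3 left out the log2 fold changes moved both ways. Among those nearer 0 were Rarb, Tph1 and Htr1d at -0.39, -0.54 and -0.47, while Jag1, Dhrs3 and Htr5b lay farther from 0 at 0.81, -1.09 and -1.22.

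Of 22 tested genes of the Notch pathway, which acts through Hes1, 1 was higher and 2 were lower under the 1.5-fold rule. Over all 15475 genes the counts were 154 and 465. The ligand gene Jag1 was at 7.36 and 7.07 with scrambled peptide and 8.02 and 7.84 with MOTS-c (log2 fold change 0.71, SE 0.16). The receptor gene Notch4 was at 10.39 and 10.49 against 9.85 and 9.25 (log2 fold change -0.89, SE 0.23), and Mfng, a Fringe glycosyltransferase that modifies Notch receptors, at 11.81 and 11.38 against 10.78 and 10.63 (log2 fold change -0.88, SE 0.19). The limma adjusted p-values of the 3 were 0.499 to 0.534. The direct targets Hes5, Hey1 and Nrarp overlapped between the groups, as Hes1 did, with log2 fold changes of -0.29, -0.04 and 0.02. Jag1 and Notch4 did not pass the rule without scrambled replicate 2, at log2 fold changes of 0.58 and -0.84.

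Of 13 tested genes of retinoid metabolism, the pathway of Aldh1a3, 0 were higher and 3 lower, against 154 and 465 of all 15475 genes. Dhrs3, a retinaldehyde reductase, was at 9.10 and 8.65 with scrambled peptide and 7.79 and 7.87 with MOTS-c (log2 fold change -1.05, SE 0.19, limma adjusted p = 0.474), while a second, dim probe of the gene gave 0.24. The receptor genes Rxrg and Rarb had log2 fold changes of -0.92 (SE 0.18) and -0.70 (SE 0.26), and a second tested probe of Rarb gave -0.28. Dhrs3 and Rxrg kept the rule in all 10 alternatives. Rarb lost it in 6 of them, with -0.52 without scrambled replicate 1, -0.88 without scrambled replicate 2 and -0.39 without MOTS-c replicate 3. Aldh1a1, the related dehydrogenase gene, was well above background on the 2 MOTS-c arrays and on 0 scrambled arrays, at 1.37 to 1.87 times local background. It passed the filter through the MOTS-c arrays alone, so its place among the genes above 0 follows from the filter and no difference is read from it.

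Of the 8 genes of the gastrin and cholecystokinin system, all tested, 1 was lower, against 465 of all 15475 genes. Cckar, the receptor for cholecystokinin, was at 5.96 and 6.00 with scrambled peptide and 4.84 and 2.98 with MOTS-c, where it was well above background on 1 of 2 arrays. The spot signal of Cckar was 1.25 to 3.45 times local background. Its log2 fold change was -2.07 (SE 0.62, limma adjusted p = 0.558), and the value was -1.15 without MOTS-c replicate 3, the array on which the spot was not well above background, and -0.61 with normexp. With scrambled replicate 1 left out the value was -2.07 and with scrambled replicate 2 left out -2.03, and the rule was not passed in either case. Cckbr, the receptor shared by gastrin and cholecystokinin, was at 4.83 and 5.68 against 5.10 and 4.02, with overlapping groups (log2 fold change -0.70, SE 0.47, limma adjusted p = 0.773). It was -1.24 without MOTS-c replicate 2, when it passed the rule, and -1.12, -0.27 and -0.16 without scrambled replicate 1, scrambled replicate 2 and MOTS-c replicate 3. The probe read for Cckbr lay at only 1.54 to 2.31 times local background and gave -0.17 with normexp. A second tested probe of the gene gave -0.42 with all arrays. The 6 genes for processing of the hormones, such as the convertases Pcsk1 and Pcsk2 and the carboxypeptidase Cpe, had log2 fold changes from -0.20 to 0.17.

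Of 11 tested serotonin genes, listed because Fev drives the serotonergic program of neurons, 0 were higher and 3 lower. Among all 15475 genes 154 were higher and 465 lower. Tph1, the rate-limiting enzyme of peripheral serotonin synthesis, was at 7.88 and 7.96 with scrambled peptide and 7.38 and 7.04 with MOTS-c (log2 fold change -0.71, SE 0.16, limma adjusted p = 0.512), and a second tested probe gave -0.49. It did not pass the rule without MOTS-c replicate 3, at -0.54. Ddc, the next enzyme, did not overlap between the groups either (log2 fold change -0.56, limma adjusted p = 0.564). The receptor genes Htr1d and Htr5b had log2 fold changes of -0.80 each, and the Htr5b probe lay at only 1.27 to 1.83 times local background. Htr1d lost the rule in 6 of 10 alternatives, among them those without scrambled replicate 1 (-0.88), scrambled replicate 2 (-0.72) and MOTS-c replicate 3 (-0.47), and was -1.14 without MOTS-c replicate 2. Htr5b was not well above background on MOTS-c replicate 2, and lost the rule without that array (-0.38) and without scrambled replicate 1 (-0.76) or 2 (-0.82).

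Of 21 tested other factors of pancreatic progenitors and endocrine cells, 0 passed the 1.5-fold rule in either direction, with 10 above and 11 below 0 and log2 fold changes from -0.57 to 0.29. The progenitor and β-cell factor Pdx1 had a log2 fold change of -0.28, the β-cell factors Nkx6-1 and Mafa of 0.12 and 0.16, and Neurod1, a target of Neurog3, of 0.29. Of 8 other dedifferentiation markers 7 were tested and 0 passed the 1.5-fold rule, with log2 fold changes from -0.46 for Mycn to 0.36 for Slc5a10.

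**Figure D5:**
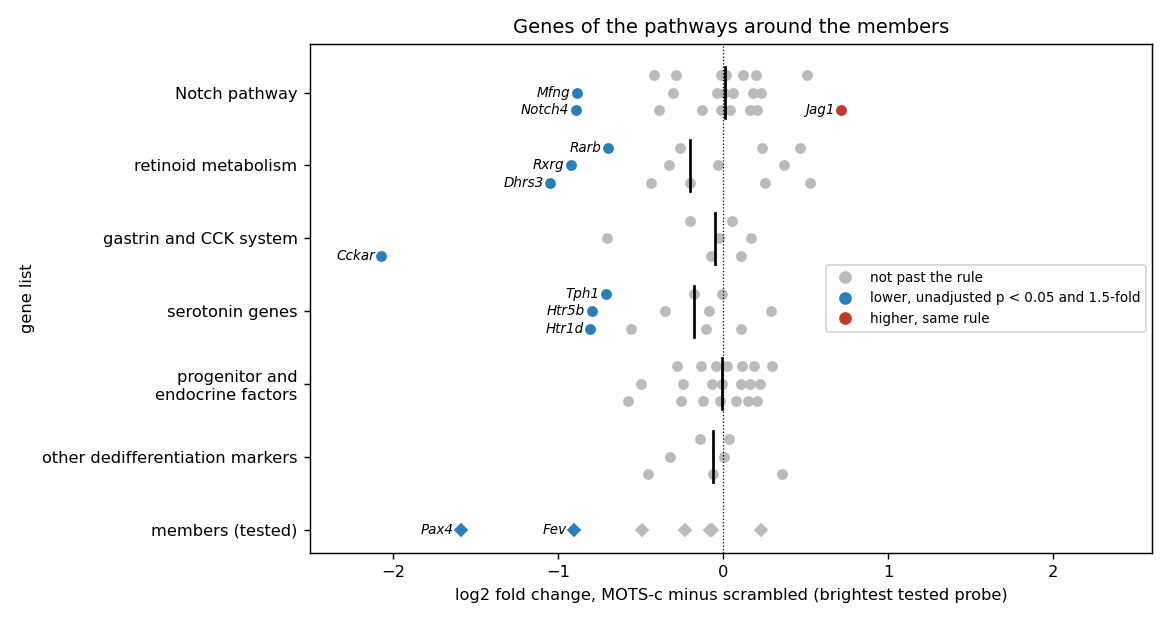
Log2 fold change (MOTS-c minus scrambled) of the 82 tested genes of 6 pathway lists and of the 7 tested members, with black bars at list medians, a dotted line at the median of all genes, and colored, named points where the unadjusted p was under 0.05 and the change at least 1.5-fold. Most points lie within 0.5 of 0, and 9 of the 10 named list genes lie on the lower side.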

How the data were processed

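Total RNA from 4 samples of dispersed islet cells (2 scrambled, 2 MOTS-c) was labeled with Cy3 and hybridized to Agilent mouse arrays on 1 slide with 1 scan. The authors deposited scanner files with spot intensity values, background-subtracted per the file headers, and a series table of the same intensity values, equal to the scanner values within ratios of 0.995 to 1.005. The headers name the build mm9, and no coordinates of that build were used. Promoter windows were cut at the upstream end of each gene in RefSeq and are on GRCm38.p6.

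Control spots (3671 per array) and 96 to 131 outlier spots per array were left out, spots of a probe were averaged as log2 values, and 33006 of 56605 probes were given a symbol by matching the accession to RefSeq. Probes that passed the scanner's background test on 2 or more arrays were quantile normalized and compared with limma (version 3.58.1, R 4.3.3; 2 residual and 2.64 prior degrees of freedom), with Benjamini-Hochberg adjustment over all 35087 probes. The study's methods name an independent t-test, which was run as an alternative. The 1.5-fold rule asks for an unadjusted p under 0.05 and a change of at least 1.5-fold. A gene with several probes was read at the one with the highest mean over all arrays. Scripts were tested on simulated data.

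All members were named, and of the lists Cckar, Cckbr, every gene past the 1.5-fold rule and markers set beside a member; other genes were named as examples after their values were seen. An item of the lists is not reported here and was left out of their counts. Members and lists were chosen with earlier results of these data known. The study's table of changed probes was used only to mark which probes it holds. The number of arrays limits the precision, and 0 spots were saturated.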

Additional observations from a re-analysis of the deposited data

How the results depend on the processing

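Pax4 and Fev stayed below 0 in all 10 alternatives, and so did Gast and Insm1, while Rfx6 stayed above 0. The groups of Pax4, Fev, Gast and Insm1 did not overlap, so leaving out 1 array could hardly turn their sign. The t-test alternative has the same fold changes as limma. A kept sign is therefore weak evidence. Hes1 turned to 0.028 with normexp and to 0.014 without scrambled replicate 2, with a range of -0.149 to 0.014 with 1 array left out, and Cck turned to 0.080 without MOTS-c replicate 3, with a range of -0.242 to 0.080; the cause was not tested. The probes past the 1.5-fold rule (1239, with 387 higher and 852 lower) numbered 407 (75 higher, 332 lower) with normexp, which used median spot signals, and 457 (127 higher, 330 lower) with the methods' t-test, and the share of higher calls went from 31.2% to 18.4% with normexp. The higher calls numbered 672 with no filter on dim probes and 226 when all 4 arrays had to be well above background, settings that change the number of probes tested to 56605 and 32871. Leaving out 1 array gave 1374 to 3264 probes (465 to 1441 higher, 794 to 1823 lower), 2 to 3 members and 6 to 19 list genes, against 2 members and 10 list genes with all arrays; the highest counts were without MOTS-c replicate 2. The member count was 1 with normexp, where Fev was lost, and the list count was 5 with normexp and 2 with the methods' t-test. The number of probes with an adjusted p under 0.05 was 0 in every setting run but the methods' t-test, where it was 1 (H2ac12, a histone gene, log2 fold change 0.02, adjusted p 0.0142 there and 0.987 by limma). For Pax4 the adjusted p over the alternatives was 0.241 to 1, and for Fev 0.318 to 1. A mean over the tested probes of a member could not differ, since each tested member had 1 tested probe, and with all arrays on 1 slide no slide block was run. No paired analysis was possible because the groups share only 1 replicate number. Members near background, above all Fev and Hes1, are limited by signal, and 2 arrays per group limit every value.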
